A study of Mus musculus with 17 samples.

Results

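The regions described here are the stretches of open chromatin that the deposited table assigned to amino acid transporter genes in mouse B cells. A region was a member where the nearest transcription start belonged to a gene of the solute carrier families SLC1, SLC3, SLC6, SLC7, SLC36, SLC38 or SLC43 and lay at most 50000 bases away. The rule found 186 of the 66177 regions, at 47 gene symbols. Of these symbols 46 were transporters, and Slc7a6os is a gene on the opposite strand to Slc7a6 that encodes no transporter. The rule also took in SLC6 carriers of other substrates, namely monoamines, GABA, taurine, betaine and creatine. A region carries its gene name and its distance in bases to the nearest annotated start, negative where it lies upstream, so Slc7a5 -1503 lies 1503 bases upstream of a start of Slc7a5, and "start" means that a start lies inside the region.

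Open chromatin was read out with ATAC-seq, in which the Tn5 transposase inserts sequencing adapters into open DNA, in 3 sorted populations: naive B cells, called nB, B cells of the germinal center, called GCB, and plasma cells from bone marrow, called BMPC. Mice whose B lineage lacks the de novo methyltransferases Dnmt3a and Dnmt3b (KO, Dnmt3afl/fl Dnmt3bfl/fl with a cre allele) were compared with littermates (C, Dnmt3afl/fl Dnmt3bfl/fl without it). There were 3 nB C, 2 nB KO, 2 GCB C, 4 GCB KO, 3 BMPC C and 2 BMPC KO libraries. Each came from 3000 to 5000 sorted cells of mice aged 8 to 12 weeks. All groups carried the floxed Dnmt3a and Dnmt3b alleles. Cre was active in the B lineage and was present in KO mice only, so an effect of the cre allele itself and of the deletion cannot be told apart. The nB (B220+ Fas- GL7-) came from lymph nodes of male mice without immunization, and each library was 1 mouse. The GCB (B220+ Fas+ GL7+) bound the antigen phycoerythrin (PE) and were sorted from lymph nodes 30 days after immunization with PE, each library a pool of 2 mice named F1 to F3 (female) or M1 (male). The BMPC (CD138+) came from bone marrow of 1 female mouse each, 30 days after the same immunization, and were not selected for antigen. Cell type therefore went together with organ, immunization and, between nB and BMPC, sex. The 6 member regions on chromosome X, at Slc6a8 and Slc7a3, are those where sex and cell type cannot be told apart most directly.

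Values are RPPM, the reads in a region scaled to a total of 1000000 reads in all regions of the same library. Libraries held 4104875 to 6079018 reads in regions in nB, 907959 to 2280954 in GCB and 5357687 to 8232313 in BMPC, so 3 reads equal 3.30 RPPM in the shallowest GCB library and 0.364 RPPM in the deepest BMPC library. GCB values under that level are not readable as differences from 0. Reads on the mitochondrial chromosome were 7.43% to 10.1% in GCB and 2.56% to 4.59% in the other cells, and their part in GCB differences was not tested. Defining markers were checked against the labels. Regions at the start of Fcer2a and Pax5, genes of mature B cells, averaged 42.4 and 40.3 RPPM in nB C against 1.20 and 2.84 in BMPC C, and the summed level of 5 such genes was 167.3 to 173.5 in nB C and 23.8 to 28.8 in BMPC C. The start region of Bcl6, a repressor that germinal center B cells need, went against its label at 20.01 in GCB C and 53.8 in nB C. The germinal center markers S1pr2, Fas and Mki67 averaged 26.2, 20.6 and 28.7 RPPM in GCB C and 14.4, 15.3 and 23.7 in nB C, but 39.3, 31.2 and 27.9 in BMPC C. Of 5 plasma cell markers Slpi, Sdc1 and Xbp1 averaged 11.7, 13.5 and 75.5 RPPM in BMPC C and 1.21, 9.73 and 60.8 in nB C, whereas Irf4 and Prdm1 averaged less in BMPC C (44.1 and 36.8) than in nB C (57.4 and 38.3). Of 5 T cell markers only Lck had a region near its start, and the myeloid genes Lyz2 and Mpo and the erythroid gene Gata1 had none. The summed level of the 4 myeloid genes with a region was 11.6 to 18.7 RPPM in BMPC C and 17.7 to 21.6 in nB C, and that of the 2 erythroid genes was 63.9 to 74.7 against 51.2 to 57.0. Their part in the results was not tested.

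Amino acid transporters move amino acids across the plasma membrane or the lysosomal membrane. Heteromeric transporters pair a heavy chain (SLC3), which brings the complex to the membrane, with an SLC7 light chain that does the transport. Plasma cells are known for a very high rate of antibody synthesis, which draws on imported amino acids, and amino acid shortage raises many transporter genes through the factor ATF4, which binds C/EBP-ATF response elements with the core TGATGNAA.

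The sequences below are the central 200 bases of 7 regions that carry the cell type differences, read from the mm9 genome on the plus strand. Capitals mark any match, on either strand, to 1 of 6 motifs: TGATGNAA, TGACGTCA (cyclic AMP response element), CAGCTG (E2A), GGAAGT (PU.1), GAAAC (IRF) and ATGCAAAT (octamer). Matches are a description of letters and not of binding. The first 3 rose from nB to BMPC, the next pair were open in GCB alone among the C groups, and the last pair fell after nB.
Slc7a5 -1503, chr8:124422299-124422498: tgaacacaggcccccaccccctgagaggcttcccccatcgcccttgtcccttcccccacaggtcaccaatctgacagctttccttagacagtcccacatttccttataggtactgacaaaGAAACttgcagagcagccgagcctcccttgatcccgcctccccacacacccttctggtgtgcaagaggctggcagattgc
Slc7a6 -2399, chr8:108710003-108710202: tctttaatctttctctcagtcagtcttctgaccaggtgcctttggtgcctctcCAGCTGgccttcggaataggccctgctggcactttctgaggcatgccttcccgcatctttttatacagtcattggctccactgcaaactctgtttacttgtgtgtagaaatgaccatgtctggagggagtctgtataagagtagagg
Slc43a2 -1439, chr11:75377614-75377813: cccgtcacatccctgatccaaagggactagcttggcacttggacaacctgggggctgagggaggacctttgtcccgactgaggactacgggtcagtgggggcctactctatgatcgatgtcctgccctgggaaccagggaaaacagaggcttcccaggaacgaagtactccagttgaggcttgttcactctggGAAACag
Slc36a4 -38912, chr9:15474794-15474993: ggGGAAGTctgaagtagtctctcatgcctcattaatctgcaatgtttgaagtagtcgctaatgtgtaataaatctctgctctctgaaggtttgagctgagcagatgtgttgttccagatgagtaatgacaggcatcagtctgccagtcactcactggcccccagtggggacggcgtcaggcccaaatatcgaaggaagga
Slc36a4 -15356, chr9:15498439-15498638: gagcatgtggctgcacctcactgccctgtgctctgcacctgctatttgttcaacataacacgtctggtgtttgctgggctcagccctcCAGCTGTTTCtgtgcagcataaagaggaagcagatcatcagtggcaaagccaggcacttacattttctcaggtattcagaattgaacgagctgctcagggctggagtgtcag
Slc38a1 +42599, chr15:96429426-96429625: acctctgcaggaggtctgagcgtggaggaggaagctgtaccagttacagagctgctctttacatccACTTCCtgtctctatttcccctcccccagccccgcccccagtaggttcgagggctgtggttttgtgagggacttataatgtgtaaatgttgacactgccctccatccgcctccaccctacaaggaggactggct
Slc38a11 -27243, chr2:65229483-65229682: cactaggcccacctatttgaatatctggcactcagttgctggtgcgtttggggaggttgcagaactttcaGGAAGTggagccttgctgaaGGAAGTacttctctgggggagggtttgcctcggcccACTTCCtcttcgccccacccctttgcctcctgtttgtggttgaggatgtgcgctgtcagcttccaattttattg
The window of Slc38a11 -27243 held 3 copies of GGAAGT, at bases 71, 91 and 127, the last read on the minus strand as ACTTCC. In Slc36a4 -15356 the CAGCTG at base 89 and the GAAAC at base 94, read on the minus strand, share 1 base.

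The next lines show a selection of the matches to the TGATGNAA core in member regions at genes known to respond to amino acid supply. The core is in capitals with its flanks, 28 bases each, written on the strand that reads the core. Slc7a7 start (2) and Slc7a1 start each hold 2 cores, of which 1 is shown.
Slc7a5 -1503, chr8:124422146-124422173, plus strand: tagctccggcTGATGTAAcaccggctgt
Slc7a5 -1503, chr8:124422485-124422512, minus strand: atctggctagTGATGCAAtctgccagcc
Slc7a7 start (2), chr14:55036765-55036792, minus strand: acctagaagcTGATGCAAcagcttcccc
Slc38a2 start, chr15:96529598-96529625, plus strand: cgggaggaacTGATGCAAtaccgagggg
Slc7a11 start, chr3:50247565-50247592, plus strand: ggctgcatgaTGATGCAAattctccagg
Slc7a1 start, chr5:149211066-149211093, minus strand: gcgtggtgcaTGATGCAAcagcgggagg
Slc1a4 start, chr11:20232703-20232730, plus strand: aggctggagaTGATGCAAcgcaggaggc
These lie in regions that behaved differently. Slc7a5 -1503 and Slc7a7 start (2) rose after nB, the starts of Slc38a2, Slc7a1 and Slc1a4 were open in every library, and Slc7a11 start stayed near the detection limit. Searched over the whole region, the core was present in 20 of 186 members (10.8%) and in 4689 of the 65893 regions that could be searched (7.12%). Among regions annotated as promoter it was present in 9 of 46 members (19.6%) and in 956 of 14308 regions (6.68%), with median widths of 799 and 948 bases.

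Most transporter genes had several regions and most regions lay away from the start. Slc38a2 had 13, Slc38a1 12 and Slc43a2 11, and Slc1a3, Slc7a1 and Slc7a7 had 9 each. The table annotated 46 members as promoter (24.7%, against 21.7% of all regions) and 60 as intergenic, and 32 held a start. Another 15 regions at these families lay beyond 50000 bases. Member regions had a median width of 515.5 bases (range 164 to 1957), against 510 for all regions. In 16 members the nearest gene body was that of another gene, such as Scarf1 for Slc43a2 -4525 and P2rx6 for Slc7a4 start, so the assignment to a transporter rests on distance alone. Regions of 1 gene are not independent of each other. Of the members, 93 exceeded 3 reads in every library and 7 averaged under 1 RPPM. All 186 entered the test.

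The level of the whole set differed little between cells. Its summed RPPM was 2279 to 2418 in nB libraries, 2296 to 2398 in GCB and 2527 to 2607 in BMPC. The differences lay in which regions were open. Comparisons used limma, fitted to log2(RPPM + 1) of the whole table of 66177 regions, and a region was called at a Benjamini-Hochberg adjusted p of at most 0.01 and at least a 2-fold difference on that scale, which understates differences of low regions. All log2 differences below are on this scale with their standard error (SE), and adjusted p-values are from this limma fit. They measure the spread between libraries. In sorted cells, more open cells and more opening per cell cannot be told apart.

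From nB to BMPC in C, 47 member regions were higher, where 18.0% of all regions were, and 25 were lower, where 20.1% of all regions were. From nB to GCB in C, 37 were higher (all regions 14.2%) and 19 lower (all regions 8.47%). From GCB to BMPC in C, 23 were higher (all regions 11.3%) and 23 lower (all regions 19.1%). As shares of the 186, the higher calls came to 25.3%, 19.9% and 12.4% and the lower calls to 13.4%, 10.2% and 12.4%. Where 5 RPPM was added before the log, the higher and lower calls were 21 and 12 from nB to BMPC (all regions 8.57% and 9.99%), 15 and 10 from nB to GCB (6.53% and 3.76%) and 7 and 9 from GCB to BMPC (6.06% and 9.17%). Without GCB C pool M1 the calls from GCB to BMPC fell from 46 to 27, of which 12 were higher and 15 lower. Among all 66177 regions 5779 were then higher and 11085 lower. The median log2 difference of members was 0.21 from nB to BMPC (0.03 over all regions), 0.17 from nB to GCB (0.05) and 0.02 from GCB to BMPC (-0.06). Quantile normalization moved the median of all regions from nB to GCB to -0.06 and from GCB to BMPC to 0.09, and changed the split from GCB to BMPC to 33 higher and 19 lower. The split of all regions moved in the same direction, from 7474 higher and 12636 lower to 9585 higher and 9871 lower. The 3 comparisons share libraries and do not stand apart from each other.

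In all, 100 member regions at 38 genes were called in at least 1 of these comparisons and 86 in none. The highest C mean was in BMPC for 40 of the 100, in GCB for 32 and in nB for 28. Neither count was made over all regions, so they cannot be read as particular to transporter regions. At promoters, 13 of 46 members were higher in BMPC than in nB and 2 lower, against 11.2% and 6.41% of the 14332 promoter regions of the table. Away from promoters, 34 of 140 were higher and 23 lower, against 19.9% and 23.9% of the other regions.

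**Figure D1:**
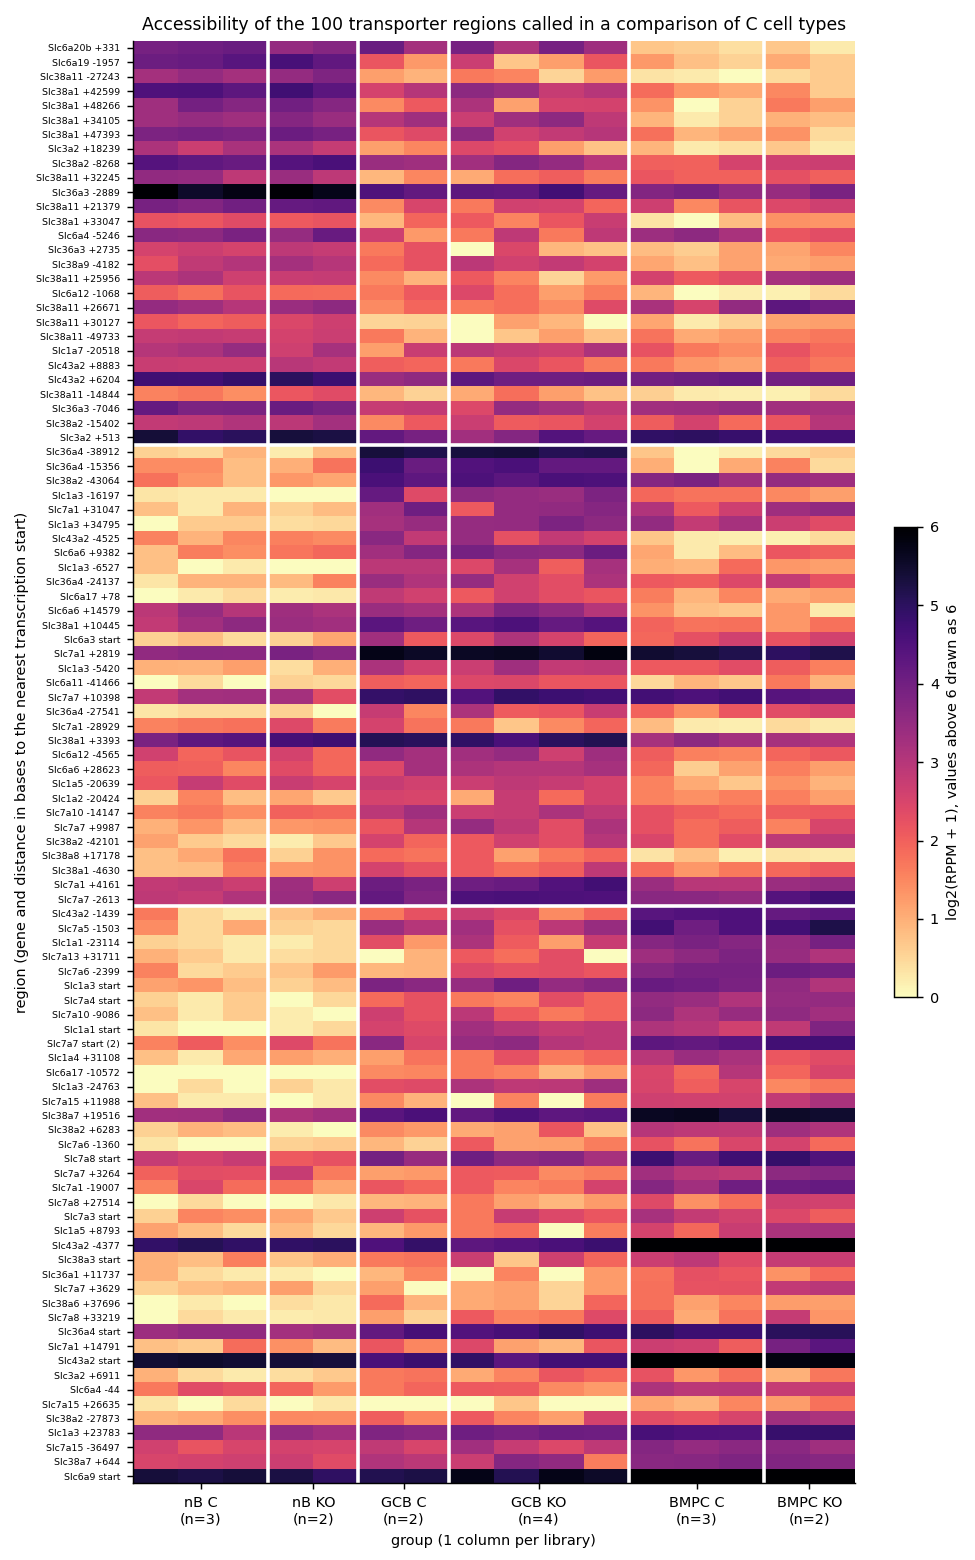
Accessibility, as log2(RPPM + 1) from light (0) to dark (6 or more), of the 100 member regions called between C cell types (rows) in each of the 16 libraries (columns, grouped by cell type and genotype). From the top the blocks hold the 28 regions with the highest C mean in nB, the 32 in GCB and the 40 in BMPC, and the KO columns can be read beside the C columns of the same cell type.

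Heavy chains changed little at their starts. Slc3a2 encodes the heavy chain also known as CD98, which all the light chains of leucine exchange in blood cells need. Slc3a2 start (2), chr19:8797273-8798063, held 60.4, 64.1 and 64.6 RPPM in the nB C libraries, 45.3 and 41.2 in GCB C and 60.1, 63.5 and 62.8 in BMPC C. The nB and BMPC libraries overlapped and both lay above GCB, and the log2 difference from nB to BMPC was -0.02 ± 0.12 (SE, adjusted p = 0.902). From nB to GCB it was -0.53 ± 0.14 (SE, adjusted p = 0.00234), short of 2-fold. Of the 8 heavy chain regions 1 was higher and 1 lower from nB to BMPC, and 2 were lower from nB to GCB.

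By count, light chains held more regions that rose from nB to BMPC than any other transporter group. Of 33 light chain regions, 13 were higher in BMPC than in nB and none was lower (all regions 18.0% and 20.1%). Relative to group size, glutamate transporters (8 of 14) and cationic transporters (6 of 14) held more. The shares of all regions given above for each comparison apply to every transporter group. From nB to GCB 7 were higher and none lower, and from GCB to BMPC 9 were higher and 1 lower. Their median log2 difference from nB to BMPC was 0.84.

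Slc7a5 encodes LAT1, the main importer of leucine and other large neutral amino acids in activated lymphocytes. Slc7a5 start, chr8:124431197-124432194, held 57.2, 49.0 and 53.4 RPPM in nB C, 43.1 and 55.3 in GCB C and 64.2, 56.6 and 60.4 in BMPC C. The nB range overlapped both others while GCB lay below BMPC, and the log2 difference from nB to BMPC was 0.18 ± 0.11 (SE, adjusted p = 0.175). Slc7a5 -1503, chr8:124421969-124422828, lies in an intron, upstream of an alternative start, and holds both TGATGNAA cores shown above. Like all 3 regions of Slc7a5, Slc7a5 -1503 is annotated as promoter. It held 1.71, 0.377 and 1.12 RPPM in nB C, 9.68 and 7.03 in GCB C and 24.8, 15.1 and 22.0 in BMPC C. The 3 cell types did not overlap. The log2 difference was 2.22 ± 0.33 (SE, adjusted p = 5.22e-06) between nB and GCB, 3.42 ± 0.30 (SE, adjusted p = 1.38e-10) between nB and BMPC and 1.20 ± 0.33 (SE, adjusted p = 0.00375) between GCB and BMPC, each positive where the latter was higher. In KO the region held 0.493 and 0.394 RPPM in nB, 8.81, 3.82, 6.58 and 9.79 in GCB and 24.8 and 36.4 in BMPC. The order of the cell types was that of C.

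Slc7a6 and Slc7a7 encode the exchangers y+LAT2 and y+LAT1, which move arginine and lysine out of the cell against leucine or glutamine. Of the 4 regions of Slc7a6, 3 are annotated as promoter. Slc7a6 start, chr8:108692279-108693717, averaged 48.3 ± 2.93 RPPM (SD, n = 3) in nB C, 32.2 ± 0.793 (SD, n = 2) in GCB C and 55.9 ± 3.25 (SD, n = 3) in BMPC C, and was not called. Slc7a6 -2399, chr8:108709592-108710613, in an intron, held 1.95, 0.377 and 0.558 RPPM in nB C, 0.880 and 0.937 in GCB C and 12.1, 13.9 and 13.9 in BMPC C. In C it was open in BMPC, while the GCB values are about 2 reads per library. Its log2 difference was 2.95 ± 0.29 (SE, adjusted p = 1.32e-09) from nB to BMPC and 2.90 ± 0.32 (SE, adjusted p = 2.50e-08) from GCB to BMPC.

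At Slc7a7 the starts differed from each other. Slc7a7 start (1), chr14:55027870-55028502, held 13.2, 14.5 and 13.2 RPPM in nB C, 12.3 and 16.9 in GCB C and 25.6, 26.8 and 22.7 in BMPC C. The BMPC libraries lay above all others and the log2 difference from nB was 0.83 ± 0.19 (SE, adjusted p = 5.64e-04), short of 2-fold. Slc7a7 start (2), chr14:55036419-55037140, held 1.95, 3.20 and 1.68 RPPM in nB C, 11.4 and 4.68 in GCB C and 18.7, 17.5 and 19.9 in BMPC C. No libraries of different cell types overlapped, and the log2 difference from nB to BMPC was 2.62 ± 0.27 (SE, adjusted p = 3.61e-09).

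Slc7a8 encodes LAT2, a close relative of LAT1. Slc7a8 start, chr14:55399707-55401017, held 5.85, 4.90 and 5.77 RPPM in nB C, 14.5 and 9.84 in GCB C and 26.4, 16.4 and 25.2 in BMPC C. Cell types did not overlap, and the log2 difference was 1.84 ± 0.23 (SE, adjusted p = 7.11e-08) from nB to BMPC. Slc7a13 +31711, chr4:19777586-19778472, intergenic near the gene of an aspartate and glutamate carrier of the kidney, held 0.974, 0.565 and 0.186 RPPM in nB C, 0 and 0.937 in GCB C and 9.10, 10.9 and 13.2 in BMPC C. The log2 difference was 2.96 ± 0.42 (SE, adjusted p = 8.91e-07) from nB to BMPC. Slc7a11 encodes xCT, the cystine and glutamate exchanger. Slc7a11 start, chr3:50247422-50247585, held at most 5 reads in any nB library, 3 in any GCB library and 11 in any BMPC library, or 0.780, 1.09 and 0.311 RPPM in BMPC C and 1.21 and 2.05 in BMPC KO. It was not called in any comparison.

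The SLC43 family holds uniporters of branched-chain amino acids, Slc43a1 (LAT3) and Slc43a2 (LAT4), and the purine base carrier Slc43a3. Of its 19 regions 2 were higher and 1 lower from nB to BMPC, and 3 were higher and 1 lower from GCB to BMPC. The regions that rose were at Slc43a2. Slc43a2 -1439, chr11:75377358-75378069, in an intron, held 2.19, 0.377 and 0.186 RPPM in nB C, 2.20 and 3.75 in GCB C and 19.6, 21.2 and 21.8 in BMPC C. The BMPC libraries stood apart, at a log2 difference of 3.65 ± 0.34 (SE, adjusted p = 3.89e-10) from nB and 2.49 ± 0.38 (SE, adjusted p = 3.48e-06) from GCB. Slc43a2 -4377, chr11:75373559-75375131, open in all cells, held 29.0, 33.0 and 29.6 RPPM in nB C, 22.0 and 28.6 in GCB C and 71.9, 76.5 and 74.9 in BMPC C. It was higher in BMPC than in nB by 1.26 ± 0.13 (SE, adjusted p = 4.97e-09). Slc43a2 start, chr11:75344797-75345953, held 41.9, 44.1 and 42.1 RPPM in nB C, 22.4 and 26.7 in GCB C and 65.0, 62.9 and 63.4 in BMPC C. From GCB to BMPC it rose by 1.35 ± 0.15 (SE, adjusted p = 1.62e-08), and from nB to GCB its log2 difference was -0.78 ± 0.15 (SE, adjusted p = 1.01e-04), short of 2-fold.

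**Figure D2:**
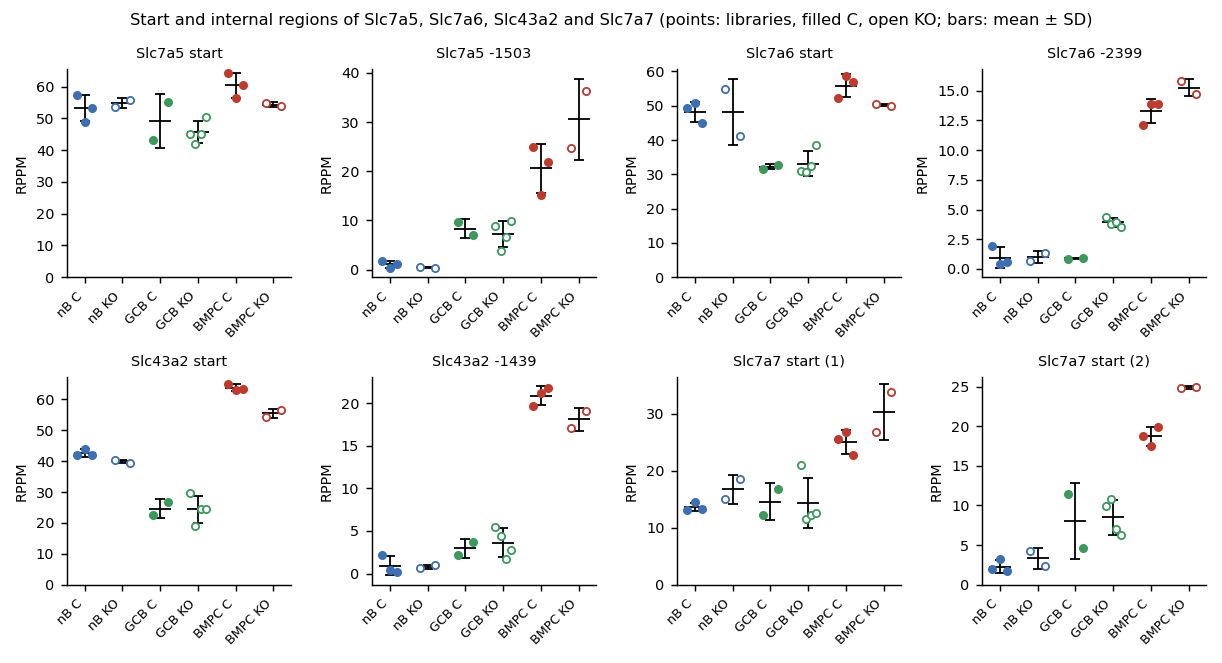
RPPM of start and internal regions of Slc7a5, Slc7a6, Slc43a2 and Slc7a7 in each library (filled points C, open points KO; bars mean ± SD of the group). Slc7a5 start lies between 42.0 and 64.2 in every library, while Slc7a5 -1503 lies at or under 1.71 in nB and at or above 15.1 in BMPC.

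Among glutamate transporters of the SLC1 family, known mainly from neurons and glia, regions opened in both later cell types, chiefly at Slc1a3. Of their 14 regions 9 were higher and 1 lower from nB to GCB, and 8 were higher and 1 lower from nB to BMPC, with median log2 differences of 1.70 and 1.32. Slc1a3 held 9 of the 14 regions and 6 of the higher calls in each comparison, and Slc1a1 held 2 in each. The region called lower in both was that of Slc1a7. Slc1a3 start, chr15:8659859-8660832, at the gene of EAAT1, held 1.22, 1.51 and 0.744 RPPM in nB C, 13.2 and 11.2 in GCB C and 16.5, 15.1 and 13.4 in BMPC C. Its log2 difference from nB was 2.63 ± 0.27 (SE, adjusted p = 1.38e-08) in GCB and 2.90 ± 0.24 (SE, adjusted p = 6.47e-11) in BMPC. Slc1a1 start, chr19:28909085-28909836, at the gene of EAAT3, held 0.244, 0 and 0 RPPM in nB C, which is 1 read in all, 4.84 and 4.22 in GCB C and 7.54, 6.75 and 5.14 in BMPC C. It was called higher in GCB (adjusted p = 1.55e-06) and in BMPC (adjusted p = 4.53e-09) than in nB. Slc1a1 -23114, chr19:28943647-28944410, in an intron, held 0.487, 0.377 and 0.186 RPPM in nB C, 3.96 and 1.41 in GCB C and 11.8, 13.7 and 11.8 in BMPC C. BMPC stood apart from the rest, at 3.32 ± 0.37 (SE, adjusted p = 1.14e-08) from nB. Its call from GCB to BMPC (log2 difference 1.96 ± 0.41, adjusted p = 2.37e-04) was lost without GCB C pool M1. Slc1a3 -16197, chr15:8617704-8618169, in an intron, was highest in GCB but with a wide spread, at 17.2 and 4.22 RPPM in GCB C, 11.0, 10.2, 9.65 and 13.3 in GCB KO, 1 read in each nB C library and 2.73, 2.37 and 2.34 in BMPC C.

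The neutral exchangers of the same family differed less. Slc1a5 encodes ASCT2, a main importer of glutamine, and Slc1a4 its relative ASCT1. Slc1a5 start, chr7:17366272-17367515, held 46.3, 53.5 and 47.5 RPPM in nB C, 33.9 and 47.8 in GCB C and 56.1, 59.3 and 52.5 in BMPC C, and its log2 difference from nB to BMPC was 0.19 ± 0.13 (SE, adjusted p = 0.222). Slc1a4 start, chr11:20232122-20233572, averaged 91.4 ± 2.22 (SD, n = 3), 60.8 ± 0.140 (SD, n = 2) and 106 ± 8.51 (SD, n = 3) RPPM in nB, GCB and BMPC C. Its difference from nB to GCB was -0.58 ± 0.13 (SE, adjusted p = 4.89e-04), short of 2-fold. Of the 8 regions of these genes 2 were higher and 1 lower from nB to BMPC and none was called from nB to GCB, and both starts were open in all 3 cell types.

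Cationic amino acid transporters carry arginine and lysine into the cell. Of their 14 regions, 5 were higher and none lower from nB to GCB, and 6 were higher and 1 lower from nB to BMPC. Slc7a1 start, chr5:149210209-149212006, at the gene of CAT1, averaged 93.0 ± 5.64 RPPM (SD, n = 3) in nB C and 118 ± 3.49 (SD, n = 3) in BMPC C and was not called. Slc7a1 +2819, chr5:149200542-149201571, in an intron, held 10.5, 11.5 and 11.4 RPPM in nB C, 51.9 and 46.4 in GCB C and 42.4, 39.6 and 34.9 in BMPC C. Both later cell types lay above nB in every library, by 2.05 ± 0.16 (SE, adjusted p = 4.07e-11) in GCB and 1.72 ± 0.14 (SE, adjusted p = 2.92e-11) in BMPC. Slc7a1 +31047, chr5:149172382-149173343, in an intron, held 0.731, 0.188 and 0.931 RPPM in nB C, 8.80 and 15.5 in GCB C and 7.41, 3.28 and 5.29 in BMPC C. It rose from nB to GCB by 3.00 ± 0.39 (SE, adjusted p = 6.13e-07). Slc7a4 start, chr16:17576338-17577043, held 0.487, 0.188 and 0.558 RPPM in nB C, 2.64 and 3.75 in GCB C and 10.4, 9.67 and 7.47 in BMPC C, a log2 difference of 2.85 ± 0.29 (SE, adjusted p = 3.34e-09) from nB to BMPC. The nearest gene body is that of P2rx6. Slc7a3 start, on chromosome X, rose by 1.69 ± 0.32 (SE, adjusted p = 6.46e-05) from the male nB to the female BMPC libraries, and in GCB C its values were 5.28 and 3.75 RPPM in the female pool F2 and the male pool M1.

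Proton-coupled SLC36 transporters sit largely on lysosomes and endosomes. Of their 11 regions 4 were higher and 2 lower in each comparison with nB, and 2 were lower from GCB to BMPC. Slc36a4 -38912, chr9:15474487-15475300, intergenic, held 0.487, 0.377 and 0.931 RPPM in nB C, 39.1 and 35.1 in GCB C and 0.650, 0 and 0.156 in BMPC C. It was open in GCB and near 0 in the other cells, with log2 differences of 4.59 ± 0.31 (SE, adjusted p = 4.50e-12) from nB to GCB and -4.94 ± 0.31 (SE, adjusted p = 5.06e-13) from GCB to BMPC. The 4 GCB KO libraries held 38.5, 40.1, 33.3 and 34.3 RPPM. Slc36a4 -15356, chr9:15498221-15498856, followed it, with 1.71, 1.70 and 0.744 RPPM in nB C, 26.4 and 16.4 in GCB C and 1.04, 0 and 1.09 in BMPC C. Its log2 difference was 3.23 ± 0.38 (SE, adjusted p = 1.00e-07) from nB to GCB and -3.75 ± 0.38 (SE, adjusted p = 3.76e-09) from GCB to BMPC. Slc36a4 start, chr9:15513523-15514929, behaved otherwise and held 9.26, 10.6 and 10.6 RPPM in nB C, 17.6 and 23.9 in GCB C and 30.7, 26.1 and 26.5 in BMPC C. It was higher in BMPC than in nB by 1.37 ± 0.16 (SE, adjusted p = 4.34e-08), although both of these distal regions were closed there. The other distal regions, Slc36a4 -27541 and Slc36a4 -24137, were called higher in BMPC than in nB. Their means were 0.331 and 0.705 RPPM in nB C and 2.64 and 3.57 in BMPC C. They were not particular to BMPC, since from nB to GCB 4 of the 5 Slc36a4 regions were called higher, all of them distal. Both had a higher mean in GCB C than in BMPC C, at 13 and 4 reads and at 22 and 16 reads in pools F2 and M1. Slc36a3 -2889, chr11:54968098-54969068, intergenic, was highest in nB, with 63.3, 44.8 and 53.6 RPPM in nB C, 21.6 and 17.3 in GCB C and 12.4, 14.2 and 10.1 in BMPC C. From nB to BMPC its log2 difference was -2.05 ± 0.17 (SE, adjusted p = 8.40e-11).

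The sodium-coupled SLC38 family, carriers of glutamine and other neutral amino acids, held the most regions and the most that closed. Of 48 regions 8 were higher and 14 lower from nB to BMPC, and 5 were higher and 11 lower from nB to GCB. Slc38a1 encodes SNAT1. None of its 12 regions rose from nB to BMPC and 6 fell, at a median log2 difference of -1.18. Slc38a1 start (1), chr15:96470850-96472648, held 66.5, 78.9 and 75.4 RPPM in nB C, 68.2 and 82.0 in GCB C and 47.7, 53.8 and 47.6 in BMPC C. BMPC lay below the rest, at -0.56 ± 0.11 (SE, adjusted p = 6.40e-05) from nB, short of 2-fold. Slc38a1 +42599, chr15:96429258-96429793, in an intron, held 21.9, 22.0 and 18.6 RPPM in nB C, 4.84 and 7.03 in GCB C and 2.60, 1.46 and 1.09 in BMPC C. Its log2 difference was -1.67 ± 0.31 (SE, adjusted p = 8.00e-05) to GCB and -3.04 ± 0.28 (SE, adjusted p = 2.89e-10) to BMPC. Slc38a1 +34105, chr15:96437807-96438287, in an intron, was held by GCB, with 9.01, 9.98 and 8.93 RPPM in nB C, 7.04 and 8.90 in GCB C and 0.910, 0.182 and 0.467 in BMPC C. It fell from GCB to BMPC, at -2.58 ± 0.31 (SE, adjusted p = 7.61e-08). Slc38a1 +10445, chr15:96461431-96461947, in an intron, was highest in GCB, with 6.09, 8.85 and 11.0 RPPM in nB C, 19.4 and 15.5 in GCB C and 2.86, 2.37 and 2.49 in BMPC C, and its log2 difference from GCB to BMPC was -2.36 ± 0.25 (SE, adjusted p = 1.28e-08).

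Slc38a11 encodes a little described member of the family and lost most of its regions. Of its 8 regions 7 were lower in GCB than in nB and 6 in BMPC, none was higher, and the remaining region, Slc38a11 -14844, had a log2 difference of -0.83 ± 0.36 (SE, adjusted p = 0.0651) from nB to GCB. Slc38a11 -27243, chr2:65229327-65229838, intergenic, held 8.53, 10.2 and 8.56 RPPM in nB C, 1.32 and 0.937 in GCB C and 0.260, 0.182 and 0 in BMPC C, the last being 3 reads in all. The nB libraries lay above all others, and its adjusted p was 9.29e-06 to GCB and 1.94e-09 to BMPC. From GCB to BMPC 2 of the 8 regions rose.

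Slc38a2 encodes SNAT2, an importer that cells raise when amino acids are short. Slc38a2 start, chr15:96528947-96530867, held 109, 101 and 98.8 RPPM in nB C, 67.3 and 74.5 in GCB C and 105, 108 and 123 in BMPC C. It was open in every library and not called. Slc38a2 -43064, chr15:96573194-96573996, intergenic and with a pair of TGATGNAA cores, held 2.44, 1.51 and 0.744 RPPM in nB C, 22.9 and 18.3 in GCB C and 11.8, 13.5 and 9.03 in BMPC C. It was higher than in nB by 3.12 ± 0.26 (SE, adjusted p = 3.46e-10) in GCB and 2.32 ± 0.24 (SE, adjusted p = 2.66e-09) in BMPC. Slc38a7 encodes SNAT7, which exports glutamine from lysosomes. Slc38a7 +19516, chr8:98356459-98357874, intergenic, held 8.77, 9.04 and 11.2 RPPM in nB C, 19.4 and 22.5 in GCB C and 48.0, 49.4 and 40.8 in BMPC C, in steps without overlap, and rose by 2.15 ± 0.15 (SE, adjusted p = 3.33e-12) from nB to BMPC. Slc38a9 encodes a lysosomal arginine sensor that acts on mTORC1. Slc38a9 start, chr13:113450420-113451540, averaged 47.2 ± 0.919 (SD, n = 3), 69.0 ± 0.138 (SD, n = 2) and 52.1 ± 4.85 (SD, n = 3) RPPM in nB, GCB and BMPC C and was not called.

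**Figure D3:**
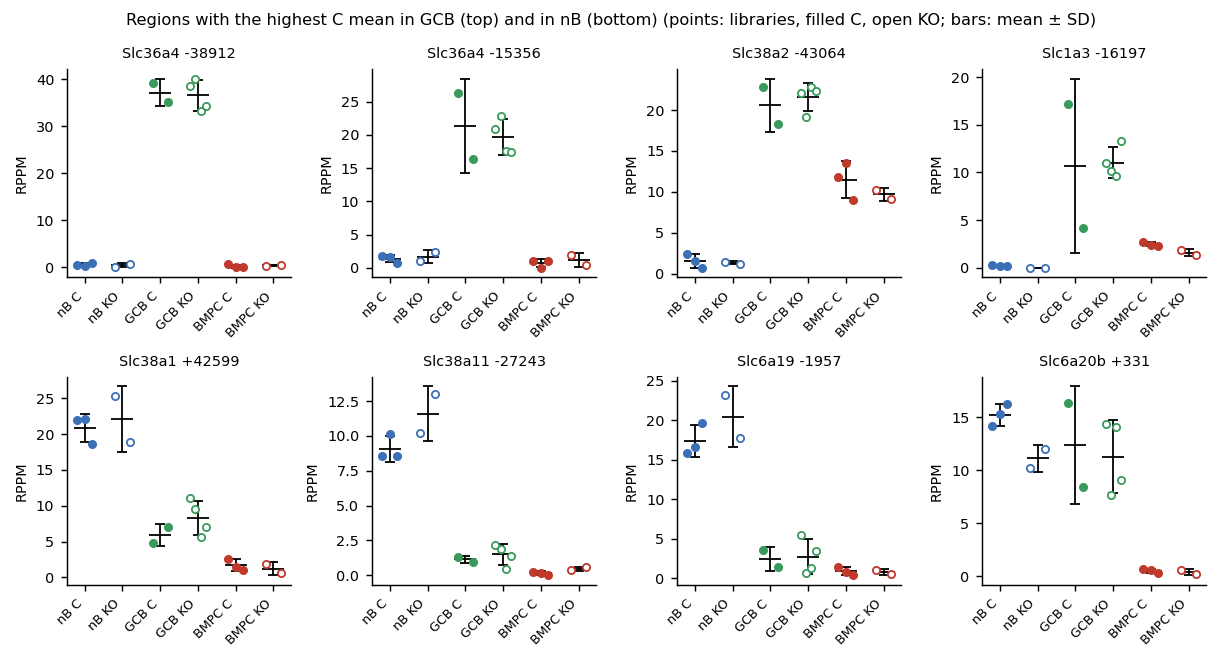
RPPM in each library (filled points C, open points KO; bars mean ± SD of the group) of 4 regions with the highest C mean in GCB (top row) and 4 with the highest C mean in nB (bottom row). Slc36a4 -38912 lies between 33.3 and 40.1 in the 6 GCB libraries and under 1 in every nB and BMPC library.

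The SLC6 amino acid carriers had 9 regions, of which 2 were higher and 2 lower from nB to BMPC. Slc6a9 encodes the glycine carrier GlyT1. Slc6a9 start, chr4:117507564-117509520, held 40.0, 36.7 and 39.8 RPPM in nB C, 34.3 and 37.0 in GCB C and 74.3, 75.4 and 78.9 in BMPC C. BMPC stood above both, and from GCB the difference was 1.07 ± 0.15 (SE, adjusted p = 6.99e-07). The regions that fell were at carriers of gut and kidney. Slc6a20b +331, chr9:123540549-123541351, at the gene of a proline carrier, held 14.1, 15.3 and 16.2 RPPM in nB C, 16.3 and 8.43 in GCB C and 0.650, 0.547 and 0.311 in BMPC C. It was lost in BMPC only, at -3.43 ± 0.27 (SE, adjusted p = 2.38e-11) from nB. Slc6a19 -1957, chr13:73840101-73840649, at the gene of the neutral carrier B0AT1, held 15.8, 16.6 and 19.7 RPPM in nB C, 3.52 and 1.41 in GCB C and 1.43, 0.730 and 0.467 in BMPC C, and was already low in GCB (log2 difference -2.47 ± 0.42, adjusted p = 2.91e-05). The SLC6 carriers of other substrates had 21 regions. From nB to GCB 4 were higher and 1 lower, and from GCB to BMPC 2 were higher and 6 lower. Slc6a6 +9382, chr6:91643444-91643855, in an intron of the taurine carrier gene, held 0.731, 2.07 and 1.68 RPPM in nB C, 8.80 and 12.2 in GCB C and 1.17, 0.182 and 0.779 in BMPC C. It was open in GCB and fell to BMPC, at -2.78 ± 0.33 (SE, adjusted p = 7.19e-08).

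**Figure D4:**
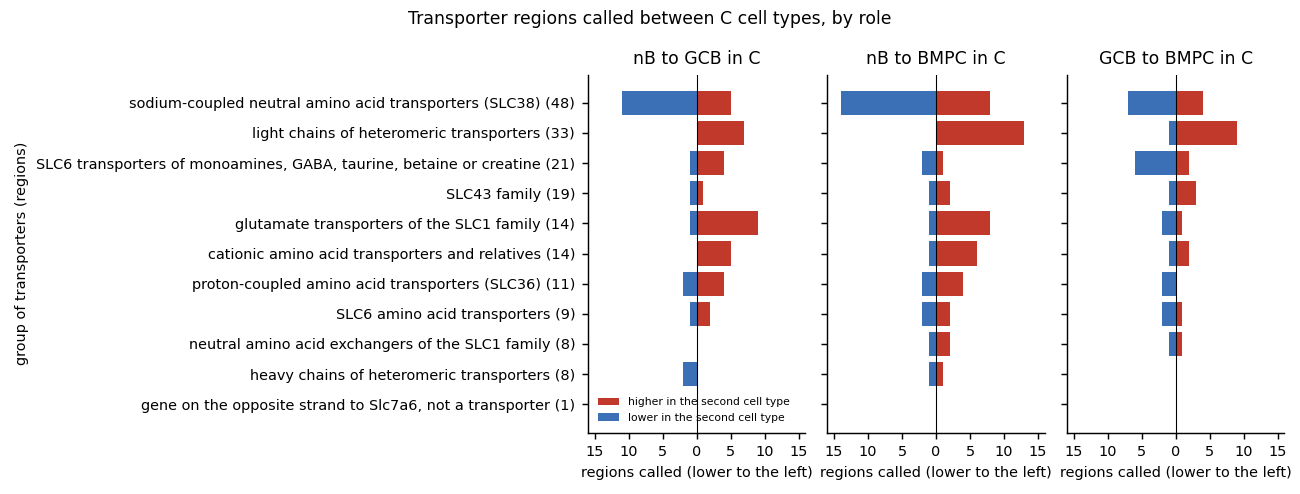
Number of member regions called higher (red, to the right) or lower (blue, to the left) in the second cell type of each C comparison, by transporter group, with the number of regions of the group in parentheses. Light chains show 13 higher and no lower from nB to BMPC, while SLC38 shows 8 higher and 14 lower.

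The same motifs were counted in the central 200 bases of each region. GGAAGT was present in 10 of the 25 members that fell from nB to BMPC (40.0%) and in 39.5% of all regions that fell. It was present in 8 of the 47 members that rose (17.0%) and in 15.2% of all that rose. CAGCTG was present in 12 of the 47 members that rose from nB to BMPC (25.5%), where the share of all that rose was 20.8%, and in 33 of the 186 members (17.7%), against 14.9% of all regions. GAAAC was present in 18 of the 47 that rose (38.3%) and in 53.7% of all that rose. The octamer was present in 6 of the 186 members (3.23%) and in 2.92% of all regions, and TGACGTCA in no member window and in 0.615% of all. A TGATGCAA followed by AT also holds the octamer, so these counts overlap.

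Other genes of amino acid supply were read from 3 lists. Among amino acid synthesis and one-carbon genes, 12 of 65 regions were higher and none lower from nB to GCB (all regions 14.2% and 8.47%), and 14 were higher and 6 lower from nB to BMPC (all regions 18.0% and 20.1%). As shares of the 65 these are 18.5% and 0%, and 21.5% and 9.23%. The start regions that rose most from nB to BMPC belonged to Asns (asparagine synthetase), Cth (cystathionine gamma-lyase, which makes cysteine) and Gls2 (a glutaminase). Asns averaged 1.07 RPPM in nB C, 29.0 in GCB C and 31.4 in BMPC C, a log2 difference of 3.96 ± 0.21 (SE), adjusted p = 5.33e-15, from nB to BMPC. Cth averaged 6.91, 59.1 and 36.7 RPPM and Gls2 11.2, 25.6 and 36.6 RPPM in the same groups. Among genes of the stress response to amino acid shortage, 6 of 41 regions were higher and 6 lower from nB to BMPC (14.6% each), which is below the share of all regions in both directions. The start region of Chac1, a glutathione-degrading enzyme raised by ATF4, averaged 3.07 RPPM in nB C, 28.7 in GCB C and 52.5 in BMPC C, a log2 difference of 3.74 ± 0.18 (SE), adjusted p = 2.00e-15. The Asns and Chac1 start regions each held 1 TGATGNAA core, and those of Cth and Gls2 held none. Among genes of amino acid sensing by mTORC1, 9 of 88 regions were higher and 17 lower from nB to BMPC (10.2% and 19.3%). The lower share was close to that of all regions. A region 403 bases downstream of a start of Rptor, the scaffold of mTORC1, fell from 5.31 to 0.416 RPPM (log2 difference -2.10 ± 0.35 (SE), adjusted p = 9.50e-06). The separate region that holds the Rptor start was not called from nB to BMPC.

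The KO libraries gave a separate set of samples for the cell type comparisons, although they entered the same fit. From nB to GCB in KO 44 members were higher (all regions 18.4%) and 22 lower (all regions 7.84%). From nB to BMPC in KO 50 were higher (all regions 18.4%) and 24 lower (all regions 16.9%), and from GCB to BMPC in KO 30 were higher (all regions 12.1%) and 27 lower (all regions 19.9%). Of the regions called higher from nB to BMPC, 40 were called in both genotypes, which is 85.1% of the C calls and 80.0% of the KO calls. For those called lower from nB to BMPC the number was 19, or 76.0% and 79.2%. From nB to GCB 32 higher calls (86.5% and 72.7%) and 14 lower calls (73.7% and 63.6%) were shared, and from GCB to BMPC 19 higher calls (82.6% and 63.3%) and 19 lower calls (82.6% and 70.4%). No member region called in C went the opposite way among the KO calls. The same overlap was not counted over all regions, so these shares cannot be read as particular to transporter regions. Under quantile normalization the split from nB to GCB in KO was 31 higher and 27 lower. The split of all regions moved in the same direction, from 12205 higher and 5188 lower to 7679 higher and 7477 lower.

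Between genotypes limma called no member region in any cell type, where it called 0 of all regions in nB, 0.0317% higher in GCB, and 0.0907% higher and 0.0136% lower in BMPC. At an unadjusted p under 0.05, 3 members were higher and 1 lower in KO in nB, 16 and 2 in GCB, and 14 and 7 in BMPC, where the shares of all regions were 0.63% and 1.04%, 7.45% and 4.34%, and 6.96% and 2.59%. No member was called for a genotype effect that differed between BMPC and nB or between BMPC and GCB, where limma called 0 of all regions. At an unadjusted p under 0.05, 5 members were higher and 6 lower for BMPC against nB (all regions 3.95% and 1.3%). For BMPC against GCB 7 were higher and 10 lower (all regions 4.63% and 3.7%). In nB and GCB edgeR and DESeq2 on the recovered reads also called no member.

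In BMPC these tools called a few members. The edgeR quasi-likelihood test called 4 higher in KO (all regions 1.45%) and 2 lower (all regions 0.361%), the edgeR likelihood ratio test 5 higher (all regions 2.01%) and 2 lower (all regions 0.526%), and DESeq2 2 higher (all regions 0.643%) and 1 lower (all regions 0.134%). As shares of the 186 members the higher calls came to 2.15%, 2.69% and 1.08% and the lower calls to 1.08%, 1.08% and 0.538%, on counts of 7 or fewer, and the difference from all regions was not tested. Slc7a1 +14791, chr5:149189104-149189599, in an intron, held 5.46, 5.11 and 3.11 RPPM in BMPC C and 14.1 and 19.2 in BMPC KO. The groups did not overlap. The limma difference was 1.68 ± 0.43 (SE, adjusted p = 0.0586), and the edgeR quasi-likelihood adjusted p was 6.71e-06. In nB and GCB the region stayed at or under 4.41 RPPM in both genotypes, and the interaction with nB had an adjusted p of 0.696. Slc7a1 +38985, in another intron position, held 1.56, 0.182 and 0.623 RPPM in BMPC C and 3.64 and 5.41 in BMPC KO, at 1.68 ± 0.40 (SE, adjusted p = 0.0443) by limma and an adjusted p of 0.00312 by edgeR. Slc6a6 +9382 held 1.17, 0.182 and 0.779 RPPM in BMPC C and 3.40 and 2.99 in BMPC KO, at 1.34 ± 0.33 (SE, adjusted p = 0.0492) by limma and an adjusted p of 0.00262 by edgeR. These low values stand on few reads. DESeq2 called Slc7a1 +14791 and Slc6a6 +9382 as well and gave Slc7a1 +38985 no adjusted p. Both edgeR tests also called Slc38a11 +26671 higher and Slc6a4 -5246 and Slc1a4 +31108 lower in KO, DESeq2 of these only Slc6a4 -5246, and the likelihood ratio test alone Slc43a2 +6599 higher. Slc6a4 -5246, upstream of the serotonin carrier gene, held 9.23, 10.9 and 8.10 RPPM in BMPC C and 3.52 and 3.92 in BMPC KO (log2 difference -1.14 ± 0.37, adjusted p = 0.188 by limma). It was the only member called for an interaction, between BMPC and nB, by the edgeR likelihood ratio test. Among all 66177 regions that test called 129 higher and 48 lower for this interaction.

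Slc7a7 -2613, chr14:55030911-55031372, in an intron between the starts of Slc7a7, was the member with the smallest unadjusted p in BMPC (3.67e-05). It held 6.33, 5.84 and 7.44 RPPM in nB C and 9.38 and 11.2 in nB KO, 17.6 and 12.6 in GCB C and 22.0, 22.9, 22.4 and 21.7 in GCB KO, and 11.4, 11.3 and 10.4 in BMPC C and 20.4 and 25.4 in BMPC KO. The genotypes did not overlap in any cell type. The log2 difference was 0.58 ± 0.20 (SE, adjusted p = 1) in nB, 0.54 ± 0.19 (SE, adjusted p = 0.239) in GCB and 0.98 ± 0.20 (SE, adjusted p = 0.0165) in BMPC, which is past neither limit. The same lack of overlap in all 3 cell types was found for 2 members higher in KO, this and Slc6a11 -41466 (all regions 0.293%), and for 1 lower, Slc38a9 start (all regions 0.112%).

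In GCB the smallest p was at Slc7a6 -2399, which held 0.880 and 0.937 RPPM in GCB C and 4.41, 3.82, 3.95 and 3.50 in GCB KO, at 1.36 ± 0.31 (SE, adjusted p = 0.0546). All 4 KO pools lay above both C pools, at levels of a few reads, and the region was called from nB to GCB in KO (log2 difference 1.30 ± 0.31, adjusted p = 9.33e-04) and not in C (log2 difference 0.04 ± 0.32, adjusted p = 0.925). In nB Slc38a1 +3393 held 13.4, 18.5 and 19.9 RPPM in C and 23.7 and 26.0 in KO, at 0.52 ± 0.20 (SE, adjusted p = 1).

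**Figure D5:**
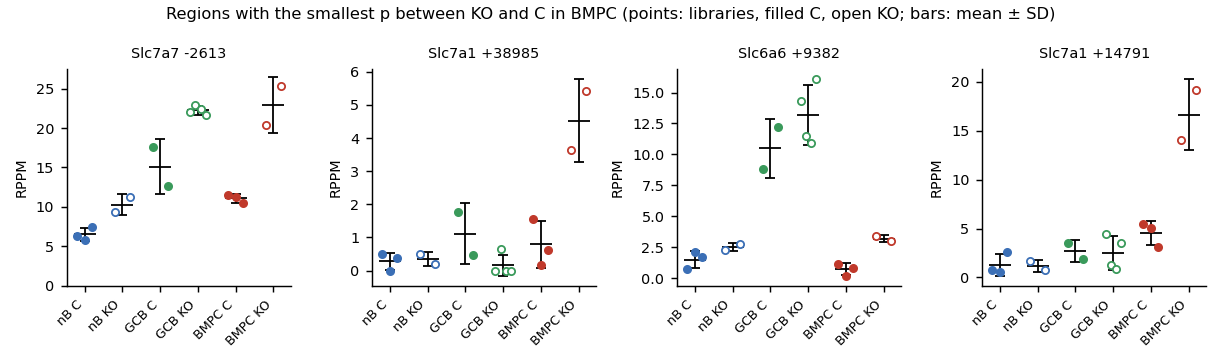
RPPM in each library (filled points C, open points KO; bars mean ± SD of the group) of the 4 member regions with the smallest unadjusted p between genotypes in BMPC. KO libraries lie above C libraries in BMPC in all 4 and, for Slc7a7 -2613, also in nB and GCB, but limma called none of them.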

How the data were processed

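The authors aligned trimmed ATAC-seq reads to mm9 (Bowtie), ran MACS2 on each library at a q-value limit of 0.01, and merged the peaks, per the study's methods. The deposited table gives each region's nearest start, by a method not given in the sources used here. The submitters' notes list Bowtie 1.1.1, Picard 1.127, MACS2 2.1.0.20140616 and edgeR 3.12.1, and the methods give other Bowtie and MACS2 versions. Tn5 offset, strand and duplicate handling are not given in the sources used here. The deposited values are RPM, here called RPPM (each library's regions sum to 1000000). In units of 1 read 100% of values came out whole (tolerance 0.001), so reads were recovered. The table's columns of the authors' own comparisons (edgeR likelihood ratio fold changes and p-values) were not used, and 1 BMPC KO sample was not analysed here.

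Groups came from the labels. limma 3.58.1 (R 4.3.3) with a trended prior was fitted to log2(RPPM + 1) of all 66177 regions in 16 libraries with 6 group means, with Benjamini-Hochberg adjustment over all regions. It was checked on simulated data. edgeR 4.0.16, DESeq2 1.42.0, quantile normalization, pseudocounts, filters, a replicate block and leaving out each library were alternatives. Intervals were not given, and depth limits cover counting error only. Sequences and motifs were read from the mm9 genome with pysam 0.24.0. Members and lists were chosen with earlier results of these data known. Named regions were the start region of 18 genes fixed by role, the 6 largest rises and falls without overlap per C comparison, and those with the smallest p between genotypes. Slc7a7 start (2), Slc7a4 start, Slc7a3 start, Slc1a1 start, Slc6a9 start, Slc43a2 -4377, Slc36a3 -2889, Slc36a4 -27541, Slc36a4 -24137, Slc7a1 +2819, Slc38a1 +10445, Slc38a7 +19516, Slc38a11 -14844 and Slc6a11 -41466 were added after their values were seen.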

Additional observations from a re-analysis of the deposited data

Results flagged for a closer look

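Among 48 named regions, 2 had a pool that stood apart from the other 3 in GCB KO, the one group of 4 libraries, by the gap between it and the nearest other pool as a share of the range. At Slc7a7 start (1) pool F1 held 20.9 RPPM and the others 11.5 to 12.6, a gap of 0.881 of the range. At Slc7a1 +38985 pool F2 held 0.637 RPPM and the others 0, a gap of 1 of the range, which is 1 read and under the level of 3 reads that is readable as a difference from 0. Chance flags about 1 in 20 groups.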

How the results depend on the processing

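Depth limits GCB: fewer reads leave low regions near the detection limit. Calls of members between cell types, in the order nB to GCB, nB to BMPC and GCB to BMPC, numbered 56, 72 and 46 in C and 66, 74 and 57 in KO. With a pseudocount of 5 RPPM they were 25, 33 and 16 in C and 24, 43 and 26 in KO, and 1 member was called between genotypes in BMPC. Of all regions 0.142% were called higher and 0.00907% lower in that genotype comparison. Within 5000 bases of a start they were 17, 24 and 19 in C and 22, 28 and 21 in KO, since fewer regions were counted. Leaving out 1 library gave 39 to 51, 63 to 68 and 27 to 43 in C and 45 to 66, 56 to 60 and 40 to 60 in KO, the low of 27 without GCB C pool M1, and 0 for genotype. Between genotypes in BMPC the edgeR quasi-likelihood test called 6, the likelihood ratio test 7, DESeq2 3 and limma on the compared groups only 1. Among all 66177 regions, limma on the compared groups only called 159 higher and 24 lower. The likelihood ratio test called 1 member for an interaction between BMPC and nB (129 higher and 48 lower among all 66177 regions). The causes were not tested. GCB pools F2 and M1 exist in both genotypes, and their deviations correlated at 0.0628. With 2 such pools per genotype the deviations mirror each other, so this value cannot tell whether same-named pools share more than name and sex. With them as a replicate block 0 members were called, and 6 had an unadjusted p under 0.05. Among all 66177 regions 8 were called higher and 2 lower, and 2536 higher and 1798 lower had such a p. Of 1402 values of the named regions under alternatives 1373 stayed on the same side of the limits, 7 lost and 22 gained a call. Where either fit made a call 0 changed sign, and sign changes of values uncalled in both fits were not counted. Calls were lost at Slc38a11 +21379, Slc38a1 +48266, Slc6a4 -5246, Slc1a1 -23114, Slc7a7 +3264 and Slc1a4 +31108.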
